A study of Mus musculus with 11 samples.

Results

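The normal heart of the mouse embryo at embryonic day 9.5 was described from 3 arrays of control hearts, which are 3 of the 11 arrays in the study. They were chosen by their label alone, the genotype Gata4 flox/+; Nkx2-5 +/+. These hearts carried 1 floxed allele of Gata4, a zinc-finger transcription factor gene of the early heart, and no Cre recombinase, so that Gata4 had not been recombined. The other 8 arrays come from hearts with Cre inserted at Nkx2-5, and they were not used here. Each array holds the RNA of pooled whole hearts, and the labels number the replicates without saying whether these are separate pools or litters. What separates the replicates, whether handling or tissue, is therefore not given by the labels. No group was compared with another, and no test was made.

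At this stage the heart of the mouse is a looped, beating tube. Its wall of cardiomyocytes is lined by endocardium and separated from it by an extracellular matrix, the cardiac jelly, and progenitor cells are still being added at both poles. Cardiomyocytes contract through sarcomeres, in which thick filaments of myosin pull on thin filaments of actin anchored at Z-discs, and troponin and tropomyosin make the pull depend on calcium. Factors of the GATA, NK, T-box, MEF2 and HAND families switch on these genes together. The embryonic heart is known to draw much of its energy from glucose and lactate, and fatty acid oxidation takes over after birth. Ligands of the BMP, FGF, WNT, Notch and neuregulin families, exchanged between myocardium, endocardium and surrounding tissue, guide its growth.

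The deposited table gives 1 linear intensity for each of 45101 probe sets and array, and a level below is log2(intensity + 16) unless another quantity is named. On this scale an intensity of 0 becomes 4. After leaving out 64 control probe sets, 18193 genes had a probe set with 1 gene symbol. They were ranked by their mean over the 3 arrays, with 1 probe set per gene. A gene is called bright in the top 10% of this ranking (1819 genes), middling in the rest of the upper 50% (7277 genes, 40.0%) and dim in the lower 50% (9097 genes, 50.0%). A percentile is the share of all genes that are dimmer. Brightness depends on how well a probe set binds as well as on the amount of RNA. A rank is thus a place among probe sets, and the order of genes within a class is no order of transcript abundance.

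The last bright gene, Tusc3, had a mean level of 9.03, and so had the first middling gene, Adam9. Rrnad1, the last middling gene, and Tmem106c, the first dim one, were at 6.01. The 3 arrays were alike over all genes. Spearman correlations between pairs of arrays lay between 0.975 and 0.982, the mean intensity between 174.3 and 175.6, and no pair shared more than 0.634% identical values. Of the bright genes, 1686 (92.7%) were in the top 10% on every array and 0 were dim on any array. Of the dim genes, 8691 (95.5%) were in the lower 50% on every array. The median SD over the 3 arrays was 0.0772 for bright, 0.104 for middling and 0.181 for dim genes. The number of arrays, 3, limits the precision of each mean.

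The file holds no detection calls. To show how bright the probe set of an unexpressed gene can be, 64 measured reference genes of other organs were read in the same way, among them genes of retina, pancreas, testis, skin and milk. Of these, 58 were dim, 5 middling and 1 bright, with a median level of 4.75. The 95th percentile of their levels was 6.61, which lies at the 58.8 percentile of all genes, and 41.2% of all genes (7491) were above it. The bright exception was Lor, a protein of the outer skin, with 9.42, 9.49 and 9.48 on the 3 arrays. Another of the 3 probe sets of Lor had a mean of 4.5, so its class depends on the probe set. Hcrt and Tff1, of hypothalamus and stomach, were middling at 7.73 and 6.87, and Mog and Csn2, of myelin and milk, were among the dimmest, each at 4.09. Reference genes thus reached well into the middling class, and 1 into the bright class. A middling gene, above all one close to the lower class limit, therefore cannot be told from an unexpressed gene by brightness alone.

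**Figure D1:**
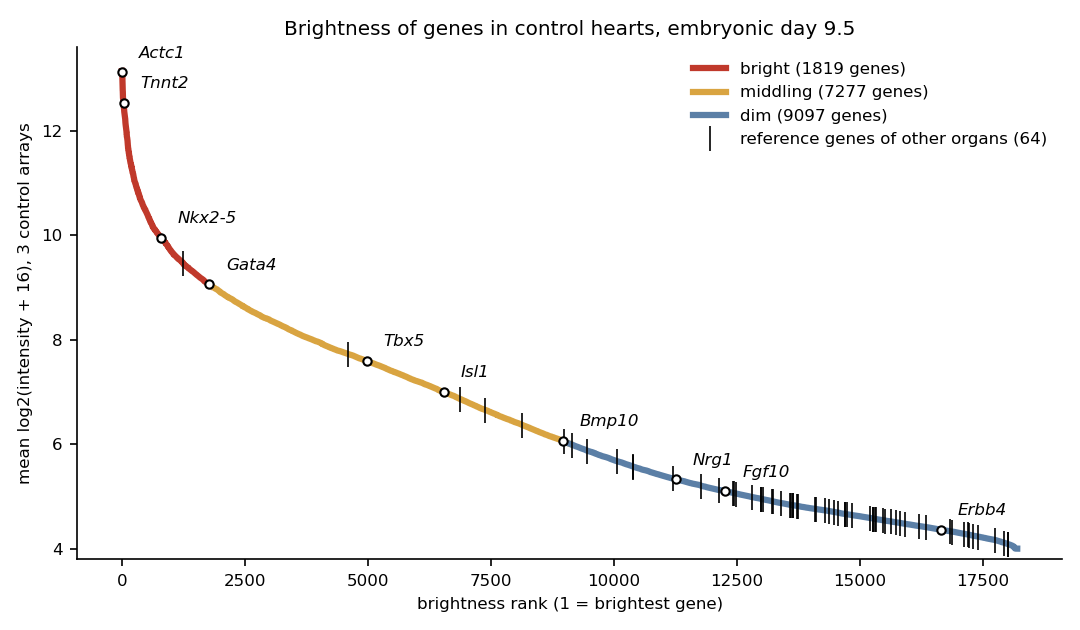
Mean log2(intensity + 16) of 18193 genes over the 3 control arrays (vertical axis) against brightness rank (horizontal axis), coloured by class, with 10 genes marked and the 64 reference genes of other organs as black ticks. The reference ticks crowd at the dim end, Nkx2-5 and Gata4 lie on the bright stretch, and Nrg1, Fgf10 and Erbb4 lie among the reference genes.

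All 4 genes taken as markers of heart muscle were bright. Myl7, the atrial regulatory myosin light chain that the whole early tube makes, measured 13.14, 13.10 and 13.12 and ranked at position 2 of all genes. Actc1, cardiac actin, measured 13.16, 13.13 and 13.04 and ranked at position 5. Both stood at the top of the scale on every array. Tnnt2, cardiac troponin T, measured 12.55, 12.58 and 12.46 (percentile 99.8), and Nkx2-5, the homeobox factor of cardiac progenitors and myocardium, measured 9.95, 9.89 and 9.99 (percentile 95.6). The labelled tissue thus had its muscle markers at the bright end on every array.

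The 20 brightest genes lay within 0.51 of each other on the log2 scale. They held 6 sarcomere genes, which were Myl7, Actc1, Myl2, Myl4, Myh7 and Myh6. Most of the others serve protein synthesis in any growing cell. They were Eef1a1, a translation elongation factor that ranked first at 13.14 ± 0.019 (SD, n = 3), and ribosomal protein genes. The latter were Rps29, Rpl4, Rpl7a, Rps3a1, Rplp2, Rplp0 and Rpl38. The rest were Tpt1, Uqcrb of respiratory chain complex III, the embryonic globin Hbb-bh1, the cytoskeletal actin Actb, lactate dehydrogenase Ldha and the imprinted gene Mest. In the top 1% of the ranking, 182 genes with levels of at least 11.35, there were 30 cytosolic ribosomal protein genes, 18 genes of the sarcomere lists and 17 of the respiratory chain and ATP synthase. Of all genes, these 3 kinds make up 0.280%, 0.286% and 0.528%. There were also 12 other genes of the metabolic lists, 8 translation factors and 8 heat shock or chaperonin genes. A further 4 were cytoskeletal actins or tubulins and 3 were globins, and 82 genes fell in none of the kinds counted.

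Of 52 measured sarcomere genes, 33 were bright, 11 middling and 8 dim, where 10% of all genes are bright by construction. Their median percentile was 97.8. The thick filament list, which also holds Myl9, a light chain of smooth muscle myosin, was bright in 10 of 13 genes. Myl2, the ventricular regulatory light chain, measured 13.05, 13.05 and 13.10. Myl4, the atrial and embryonic essential light chain, measured 12.91, 12.85 and 12.84. Myl3, its ventricular counterpart, measured 12.03, 11.98 and 11.99. Light chains named for atrium and for ventricle were thus in the bright class side by side, on every array.

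The same held for the cardiac myosin heavy chains. Myh7, the slow beta chain of the embryonic ventricle, measured 12.83, 12.78 and 12.75, and Myh6, the alpha chain, measured 12.66, 12.69 and 12.56. Ttn, the giant spring protein of the sarcomere, had a mean of 12.01 ± 0.14 (SD, n = 3), and the dimmest of its 6 probe sets had a mean of 5.2. Mybpc3, cardiac myosin-binding protein C, and Myom1, a protein of the M-band where thick filaments are crosslinked, were bright at 11.79 ± 0.092 and 10.72 ± 0.038 (SD, n = 3). The exceptions among the thick filament genes were Mybphl (middling, 7.62), Myh7b (dim, 5.95) and Myom2, an M-band protein of mature muscle, which was dim at 4.60, 4.52 and 4.34.

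Among the thin filament genes, 10 of 18 were bright, 4 middling and 4 dim. Tpm1, the main cardiac tropomyosin, had a mean of 12.62 ± 0.031 and Tnnc1, the calcium-binding troponin C of heart and slow muscle, 12.30 ± 0.014 (SD, n = 3). For troponin I, Tnni1, the slow skeletal form that the fetal heart uses, measured 12.50, 12.38 and 12.46, and Tnni3, the form of the adult heart, measured 10.80, 10.72 and 10.72. Both were bright, at percentiles 99.8 and 98.1. Acta1, skeletal actin, which the fetal heart also makes, was bright at 11.79 ± 0.059 (SD, n = 3).

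The fast skeletal forms were not in that class. Tnni2, fast troponin I, was middling with 7.73, 7.66 and 7.69, and Tnnt3 and Tnnc2, fast troponin T and C, were dim at 5.81 and 5.18. Neb, the thin filament ruler of skeletal muscle, was the dimmest sarcomere gene with 4.0, 4.52 and 4.58, whereas Nebl, its cardiac relative, was bright at 11.33 ± 0.017 (SD, n = 3). Acta2, smooth muscle actin, which the early myocardium is known to express, depends on the probe set. The rule for choosing probe sets put it in the dim class at 5.33, but a probe set of the kind passed over, with the suffix _s_at, had a mean of 13.0.

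The Z-disc and costamere list was bright in 13 of 21 genes. Csrp3, the muscle LIM protein, measured 11.99, 12.04 and 11.95. Ankrd1, a stretch-responsive ankyrin repeat protein of the heart, had a mean of 11.46 ± 0.090, Actn2, the alpha-actinin that crosslinks actin at the Z-disc, 11.02 ± 0.10, and Des, the intermediate filament desmin, 10.10 ± 0.11 (SD, n = 3). Several Z-disc genes were middling: Xirp1 at 8.85, Tcap, the cap of titin, at 7.82 and Myoz2, a calcineurin-binding protein of slow and cardiac muscle, at 7.32. Actn3, the alpha-actinin of fast fibres, was dim at 5.98 and Myot, myotilin, at 5.00.

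**Figure D2:**
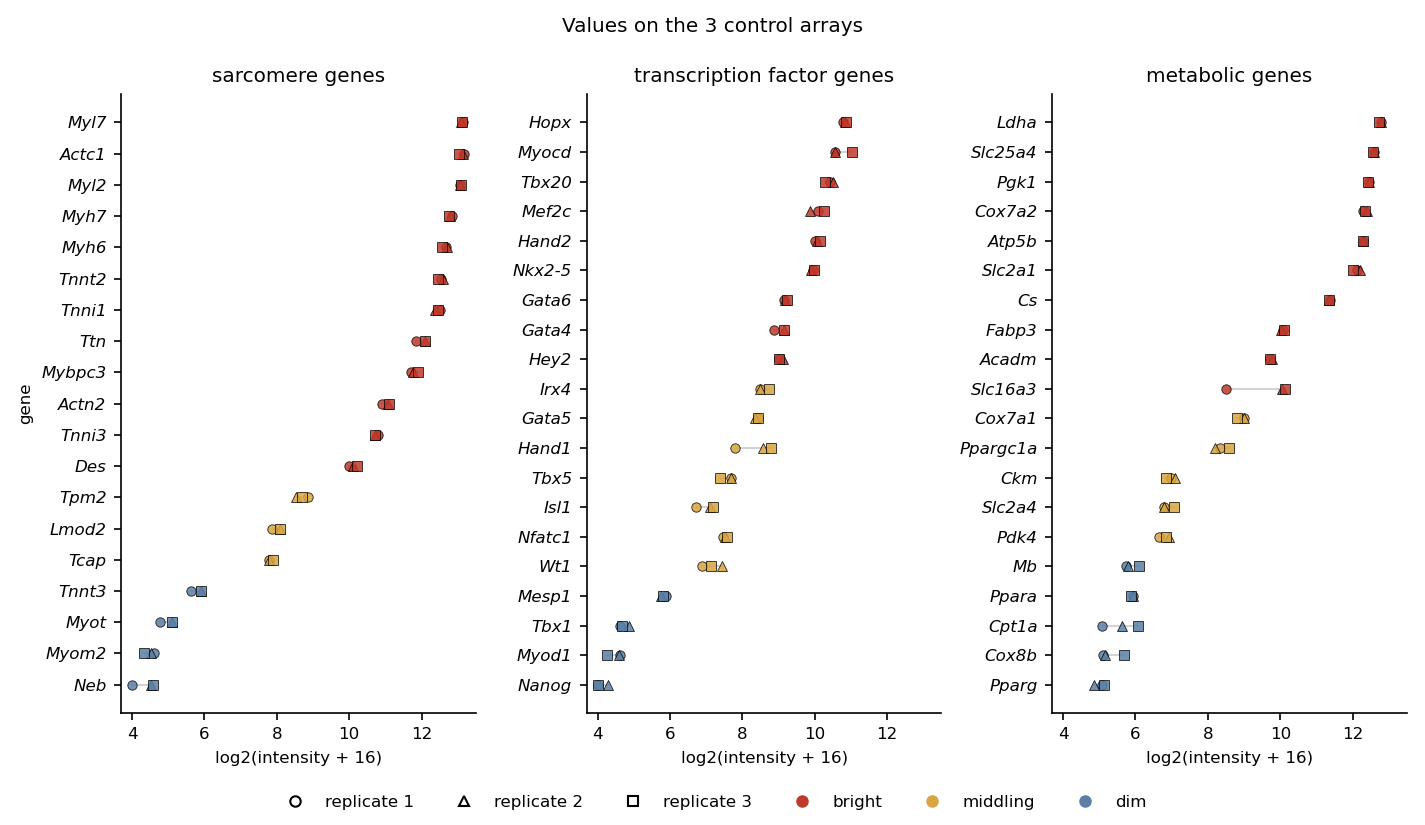
Log2(intensity + 16) on each of the 3 control arrays (symbols) for 19 sarcomere, 20 transcription factor and 20 metabolic genes, coloured by class; the grey line joins the lowest and highest array. The symbols of most bright genes overlap, and Slc16a3 and Hand1 stand out by a low replicate 1.

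The 120 bases before the transcription start of 6 genes of the heart are shown. Matches to sequence patterns that were searched for across all promoters are marked in them. The sequences were taken from RefSeq (GRCm38.p6), in the window listed first for each gene, and run 5′ to 3′ on the gene's own strand. Capitals mark matches on either strand to the CArG box, which serum response factor binds, and to 3 spelled patterns. CATTCC is the core of TEAD sites. AGATAA or TGATAA is a form of the site that factors of the Gata family bind. TATAAA is the core promoter element. Actc1 lies at chr2:114052876-114052995, minus strand. Myl7 lies at chr11:5898783-5898902, minus strand, and Tnnt2 at chr1:135836214-135836333, plus strand. Tnnc1 lies at chr14:31208192-31208311, plus strand, Nppa at chr4:148000602-148000721, plus strand, and Nkx2-5 at chr17:26841566-26841685, minus strand.
Actc1: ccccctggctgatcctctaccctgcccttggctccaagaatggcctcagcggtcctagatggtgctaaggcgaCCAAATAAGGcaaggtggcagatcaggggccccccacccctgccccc
Myl7: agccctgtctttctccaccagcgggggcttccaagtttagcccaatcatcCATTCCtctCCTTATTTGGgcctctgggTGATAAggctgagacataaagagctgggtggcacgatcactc
Tnnt2: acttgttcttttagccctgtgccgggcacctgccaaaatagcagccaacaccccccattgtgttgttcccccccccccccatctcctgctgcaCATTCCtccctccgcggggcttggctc
Tnnc1: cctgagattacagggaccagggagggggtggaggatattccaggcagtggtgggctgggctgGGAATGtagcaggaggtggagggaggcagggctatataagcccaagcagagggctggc
Nppa: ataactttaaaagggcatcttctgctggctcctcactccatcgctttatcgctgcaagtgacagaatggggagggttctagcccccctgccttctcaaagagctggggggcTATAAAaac
Nkx2-5: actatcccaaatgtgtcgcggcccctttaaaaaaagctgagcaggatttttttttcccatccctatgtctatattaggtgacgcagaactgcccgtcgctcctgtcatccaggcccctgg

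In these stretches Actc1 has a CArG box from 47 to 38 bases before the start. Myl7 has CATTCC from 70 to 65, a CArG box from 61 to 52 and TGATAA from 42 to 37 bases before it. Tnnt2 has CATTCC from 27 to 22, Tnnc1 has it on the other strand from 58 to 53, Nppa has TATAAA from 9 to 4, and the stretch of Nkx2-5 has none of the 4 patterns. Over windows of 250 bases before to 50 after the start, a CArG box was found in 425 of 27025 promoters (1.57%). Of the 31 bright sarcomere genes with a window, 10 had one (32.3%): Acta1, Actc1, Fhl1, Fhl2, Ldb3, Myl3, Myl7, Myl9, Myom1 and Vcl. Myl9 is the smooth muscle light chain counted with the thick filament list. Of the 10 other sarcomere genes with a window, 0 had one. The share was 6.25% in the reference genes of other organs and 8.70% in the cardiac transcription factors.

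CATTCC was found in 14.6% of all promoters and in 14 of the 31 bright sarcomere genes (45.2%). AGATAA or TGATAA was found in 19.0% of all and in 11 of the 31 (35.5%). It was also in 25% of the promoters of the reference genes and in 24% of those of the respiratory chain list. TATAAA was found in 14.2% of all and in 5 of the 31 (16.1%). In 14 of all promoters, and in 0 of those of the sarcomere lists, a CArG match overlapped a TATAAA match. CpG dinucleotides, measured as observed over expected, had a median of 0.828 in the promoters of all bright genes, 0.791 in middling and 0.407 in dim genes. The sarcomere lists, with a median of 0.259, lay below all 3 classes, and the respiratory chain, at 0.833, lay close to the bright class. The reference genes of other organs were lower still, at 0.172, and TATAAA was in 37.5% of their promoters. These are matches of letters in a fixed window, and they show no binding.

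The genes that move calcium and carry current were less uniform. Of 33 measured, 9 were bright, 12 middling and 12 dim. Atp2a2, the SERCA2 pump that returns calcium to the sarcoplasmic reticulum, measured 12.55, 12.66 and 12.63 (percentile 99.9), although its 6 probe sets ranged from 4.9 to 12.6. Slc8a1, the sodium-calcium exchanger, had a mean of 10.38 ± 0.16, Pln, the SERCA inhibitor phospholamban, 9.94 ± 0.24, and Ryr2, the calcium release channel, 9.81 ± 0.10 (SD, n = 3). These 4 genes of the calcium cycle were bright, as was Fkbp1a, an immunophilin that binds release channels, at 11.54 ± 0.074 (SD, n = 3).

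For calsequestrin, the calcium store of the reticulum, Casq1, known as the skeletal form, was bright with 10.22, 10.35 and 10.23. Casq2, the cardiac form, was middling with 6.20, 6.20 and 6.29, below the 95th percentile of the reference genes. Each has 1 probe set on the array. Cacna1c, the L-type calcium channel of heart muscle, was middling at 7.81 ± 0.051 (SD, n = 3), and Sln, the SERCA inhibitor sarcolipin, and Cacna1g, a T-type channel, were dim, each at 4.66.

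Of 14 channel and gap junction genes, 2 were bright (14.3%, against 10% of all genes). They were Gja1 (connexin 43) at 9.82 ± 0.091 and Gjc1 (connexin 45) at 9.19 ± 0.055 (SD, n = 3). Gja5, connexin 40 of the atria and conduction system, was dim with 4.76, 4.36 and 5.26. Kcnh2, the channel of the rapid delayed rectifier current, and Kcnj5, a subunit of the acetylcholine-gated channel, were middling at 8.60 and 8.36. Kcnj2, the inward rectifier that sets the resting potential of adult ventricle, was the dimmest, with 4.08, 4.03 and 4.17, after Kcnd2, a subunit of the transient outward current, at 4.54.

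Transcription factors spread over the whole range, with 19 of 122 bright, 57 middling and 46 dim. Without the 25 factors of other lineages, these numbers were 19, 56 and 22 of 97. The list of cardiac factors held 13 of the bright ones among 38 measured. Hopx, a homeodomain protein without DNA binding of its own, measured 10.77, 10.83 and 10.85 (percentile 98.2). Myocd, myocardin, the coactivator of serum response factor, measured 10.55, 10.56 and 11.04. Tbx20, a T-box factor of the chambers and valves, measured 10.41, 10.52 and 10.28. Replicate 3 was the highest for Myocd and the lowest for Tbx20.

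Mef2c, Hand2 and Nkx2-5 followed at percentiles 96.2, 96.2 and 95.6. Hand2, a basic helix-loop-helix factor of the right ventricle and outflow tract, measured 10.01, 10.06 and 10.15. Its partner of the left ventricle, Hand1, was middling with 7.80, 8.58 and 8.80, and replicate 1 lay apart from the other two. The GATA factors of the heart were close to the limit of the bright class. Gata4 measured 8.86, 9.15 and 9.15 (percentile 90.2), Gata6 measured 9.14, 9.18 and 9.24 (91.3), and Gata5, which is known from endocardium, measured 8.44, 8.36 and 8.43 (83.9). Their cofactors Zfpm1 and Zfpm2 were middling at 8.45 ± 0.016 and 7.72 ± 0.12 (SD, n = 3).

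Other cardiac factors lay on both sides of the bright limit. Hey2, a Notch target of the ventricle, was just inside the bright class at 9.05 ± 0.057, and Hey1, its atrial relative, was middling at 8.18 ± 0.13 (SD, n = 3). Irx4, a ventricular homeobox factor, measured 8.50, 8.50 and 8.73 (percentile 85.9). Tbx5, the T-box factor of atria and left ventricle, measured 7.69, 7.69 and 7.39 (72.6). Tbx2 and Tbx3, repressors that keep the atrioventricular canal from becoming chamber muscle, were middling at 6.41 and 6.95, and Tbx2 was below the 95th percentile of the reference genes. The dimmest cardiac factors were Mef2b at 4.75 and Tbx1, a factor of the pharynx and the outflow tract progenitors, at 4.73 ± 0.13 (SD, n = 3). Srf, serum response factor itself, was middling at 7.35 on the chosen probe set and at percentile 90.5 on one with the suffix passed over.

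Of 16 factors of the second heart field and cardiac mesoderm, 0 were bright, 9 middling and 7 dim, with a median percentile of 57.4. By construction 10% of all genes are bright and 50% dim, and 43.8% of these 16 were dim. In so short a list, 0 bright genes lies little below the share of all genes. The list assignment matters too. Hand2 and Tbx1, factors of the outflow tract or its progenitors, were counted with the cardiac factors, at percentiles 96.2 and 21.3. Meis1, Sall1 and Sall4 were the brightest of the 16 at 8.80, 8.25 and 8.24. Isl1, the LIM-homeodomain factor that defines these progenitors, measured 6.72, 7.09 and 7.18 (percentile 64). Mesp1, of the earliest cardiac mesoderm, was dim with 5.90, 5.75 and 5.80, and Lhx2 and Foxa2 were the dimmest at 4.78 and 4.24. In pooled hearts, fewer cells of a type and less RNA per cell cannot be told apart.

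Of the endocardial, cushion and epicardial factors, too, 0 of 24 were bright, where 10% of all genes are. The others were 16 middling and 8 dim (33.3%, against 50% of all genes). Ets2, Ets1 and Klf2, the last a factor that endothelium raises under blood flow, were at 8.60, 7.87 and 7.82. Nfatc1, which marks endocardium that forms valves, measured 7.46, 7.52 and 7.57 (percentile 71.6), and Wt1, of the proepicardium, measured 6.88, 7.45 and 7.14 (66.3). Sox9 and Twist1, factors of cushion mesenchyme, were middling at 7.03 and 6.96. Snai1, which drives the conversion of endothelium to mesenchyme, was dim with 4.70, 5.52 and 5.70, and Tbx4 was the dimmest at 4.64.

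Factors of growth and cell cycle included 6 bright genes of 19 (31.6%, against 10% of all genes). Ybx1, an RNA- and DNA-binding protein, Ctnnb1, beta-catenin, and Hif1a, the oxygen-regulated factor, were at 12.02 ± 0.061, 11.96 ± 0.028 and 10.81 ± 0.041 (SD, n = 3). Mycn, the MYC family member of embryonic myocardium, measured 9.88, 9.92 and 9.89 (percentile 95.4). Myc measured 6.36, 6.64 and 6.49 (57.2), and Mycl was dim at 4.77. Ybx1 and Mycn were dim when each gene was read on its dimmest probe set, so their class depends on the probe set. Foxm1, a factor of mitosis, was middling at 6.47. Yap1, the coactivator of the Hippo pathway, was bright at 9.45 ± 0.049 (SD, n = 3), as was Tead1, its DNA-binding partner, at 9.67 ± 0.037. By contrast, 24 of 25 factors of other lineages were dim, with a median percentile of 13.3. The exception was Gata1, the erythroid GATA factor, which was middling at 6.62 ± 0.18 (SD, n = 3). Sox10 and Hnf4a, of neural crest and liver, followed at 5.40 and 5.23. Pax6, Sox2, Myod1, Pou5f1 and Nanog, factors of neural, skeletal muscle and pluripotent cells, had means between 4.09 and 4.96, and Neurog2 was the dimmest at 4.05.

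**Figure D3:**
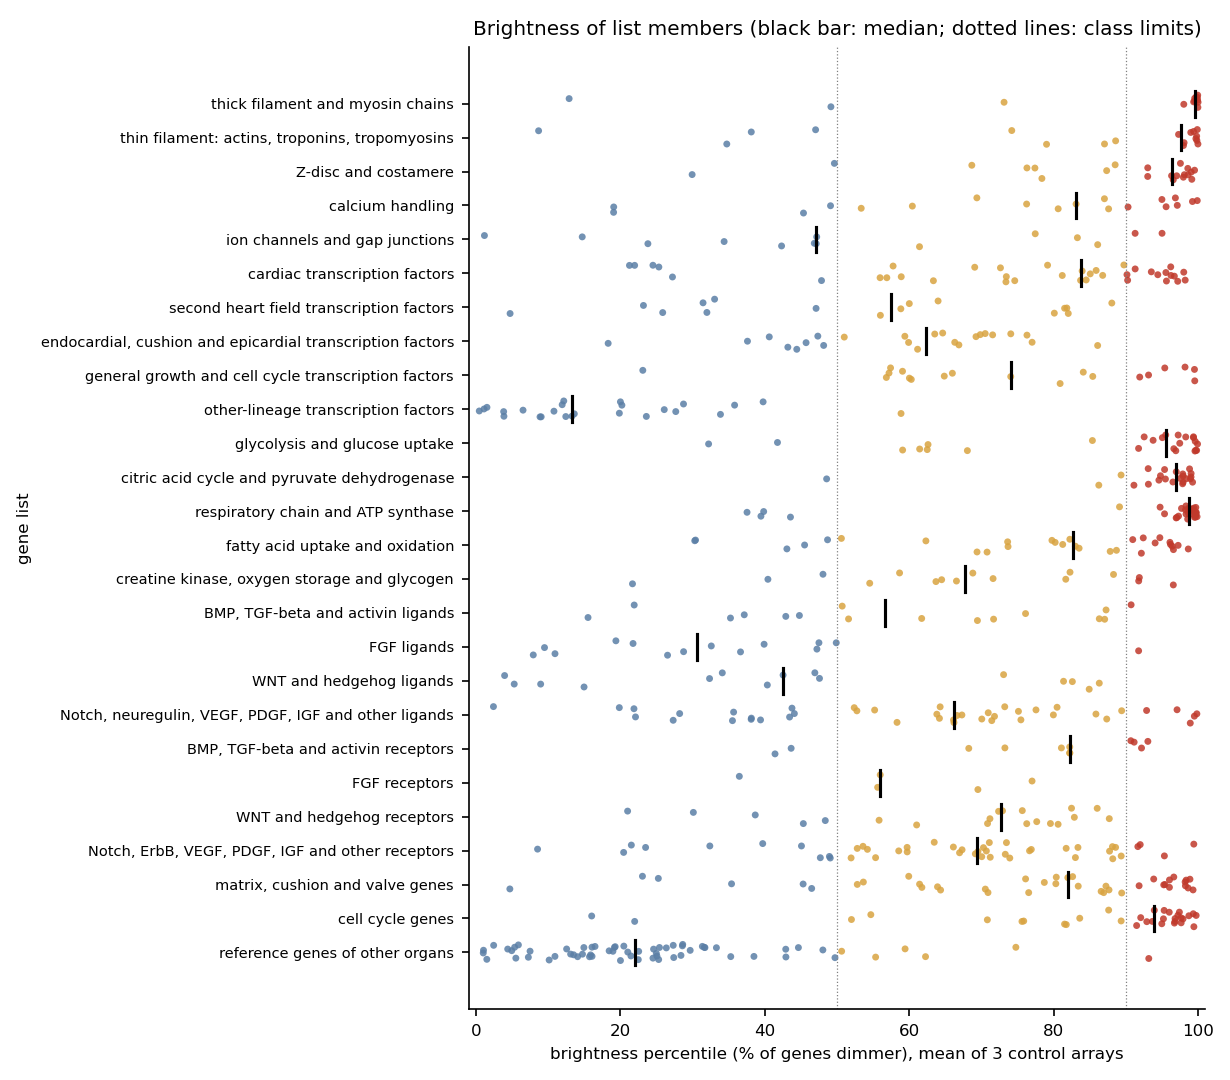
Brightness percentile (horizontal axis) of each measured member of 26 gene lists (rows), with a black bar at the median of the list and dotted lines at the class limits of 50% and 90%. The medians of the sarcomere, glycolysis, citric acid cycle and respiratory chain lists lie above 90%, and those of the FGF ligands, the other-lineage factors and the reference genes lie below 50%.

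Metabolic genes were bright in 80 of 128 cases (62.5%, against 10% of all genes), with 33 middling, 15 dim and a median percentile of 94.9. Glycolysis and glucose uptake had 17 bright genes of 25. Ldha, the lactate dehydrogenase subunit that favours lactate production, measured 12.77, 12.78 and 12.74. Pgk1, phosphoglycerate kinase, measured 12.44, 12.46 and 12.42, and Aldoa, aldolase A, 12.21, 12.31 and 12.29. Replicates of each of these enzymes lay close together.

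For glucose entry, Slc2a1 (GLUT1), the basal transporter of embryonic tissue, was bright with 12.11, 12.21 and 12.02, and Slc2a4 (GLUT4), the insulin-regulated transporter of adult heart and muscle, was middling with 6.80, 6.79 and 7.07. Hexokinases Hk1 and Hk2 were both bright, at 10.42 and 9.83. Slc16a1, the lactate transporter MCT1, was bright at 10.20 ± 0.090 (SD, n = 3). Slc16a3, the transporter MCT4, measured 8.50, 10.04 and 10.13, the widest range of any bright gene, with replicate 1 below the class limit and the other two above. Pdk1, a kinase that holds back pyruvate dehydrogenase, was bright at 9.36, Pdk4, which the adult heart raises in fasting, middling at 6.81 and Pdk2 dim at 5.51. Eno2, the neuronal enolase, was the dimmest of the list at 5.08.

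The citric acid cycle list was bright in 20 of 23 genes. Mdh2 and Mdh1, mitochondrial and cytosolic malate dehydrogenase, and Cs, citrate synthase, were at 11.57 ± 0.047, 11.37 ± 0.029 and 11.36 ± 0.020 (SD, n = 3). All 4 measured subunits of succinate dehydrogenase, Sdha, Sdhb, Sdhc and Sdhd, were bright, between 9.92 and 11.19. Suclg2 and Idh1 were middling at 8.62 and 8.95. Pcx, pyruvate carboxylase, was the only dim member with 6.01, 5.75 and 5.98.

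The respiratory chain and ATP synthase list was bright in 29 of 34 genes and had a median level of 11.09. Slc25a4, the heart and muscle ADP/ATP carrier, measured 12.58, 12.59 and 12.55, Cox7a2 12.28, 12.39 and 12.33, and Atp5b, the beta subunit of ATP synthase, 12.29 on every array. For cytochrome oxidase, several subunits exist in a general form and in a form of adult heart and muscle. The general forms Cox4i1, Cox6a1, Cox7a2 and Cox8a were bright, at 11.97, 12.32, 12.33 and 11.03. The heart and muscle forms differed among themselves: Cox6a2 was bright at 9.75 ± 0.10, Cox7a1 middling at 8.92 ± 0.11 and Cox8b dim at 5.30 ± 0.32 (SD, n = 3). Cox4i2, a form of lung, was dim at 5.61. Atp5c1 and Uqcrq, which were dim at 5.39 and 5.41, each had an _s_at or _x_at probe set, passed over by the rule, at percentiles 99.3 and 95.2.

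Fatty acid uptake and oxidation was more evenly spread, with 11 of 30 genes bright, 14 middling and 5 dim. Fabp5 and Fabp3, fatty acid binding proteins, were bright at 11.06 ± 0.092 and 10.06 ± 0.038 (SD, n = 3), and so was Hadhb, of the mitochondrial trifunctional protein, at 10.17. The electron carriers Etfa, Etfb and Etfdh and the dehydrogenases Acadm and Acadl were bright too, between 9.35 and 10.42. Cpt1a, the liver form of the enzyme that admits fatty acids to mitochondria, was dim with 5.06, 5.62 and 6.06, Cpt2, its partner inside, middling at 8.19 ± 0.022 (SD, n = 3), and Cd36, a fatty acid transporter, middling at 7.37. Of the regulators of this pathway, the coactivators Ppargc1a and Ppargc1b were middling at 8.38 and 8.10. The nuclear receptors Ppara, Ppard and Pparg were dim, at 5.92, 5.73 and 5.02, and Fabp4 was the dimmest of the list at 5.01.

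In the list of creatine kinases, oxygen storage and glycogen, 3 of 16 genes were bright (18.8%, against 10% of all genes). One was Ckb, the brain-type creatine kinase of embryonic heart, with 10.11, 10.19 and 10.19. The others were the adenylate kinase Ak1 at 9.27 and the glycogen phosphorylase Pygb at 9.26. Ckm, the muscle creatine kinase of the adult heart, was middling with 6.98, 7.10 and 6.85. Ckmt2, the mitochondrial form of striated muscle, was dim at 5.44, and so was Mb, myoglobin, with 5.74, 5.79 and 6.10. Ckmt1 was the dimmest, at 4.74.

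Ligand genes were bright in 7 of 88 cases (38 middling, 43 dim), which is 7.95% against the 10% of all genes. Receptor genes were bright in 8 of 83 (57 middling, 18 dim), which is 9.64%. Neither share lies far from that of all genes. Receptors were middling in most cases, and the median percentiles were 51.2 for ligands and 70.8 for receptors.

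The BMP family shapes chambers, the atrioventricular canal and cushions. Bmp2, of the atrioventricular canal, measured 8.72, 8.69 and 8.70, Bmp5 8.82, 8.76 and 8.58, and Bmp7 8.61, 8.59 and 8.66. All 3 were in the upper part of the middling class on every array. Bmp4, of the outflow tract, was middling at 7.80 ± 0.083 (SD, n = 3). Bmp10, a factor of trabecular myocardium, measured 5.85, 6.03 and 6.30 (percentile 50.7), at the limit between middling and dim. On the receiving side, Bmpr2 and Bmpr1a were bright at 9.43 ± 0.064 and 9.17 ± 0.039 (SD, n = 3). Both were dim when each gene was read on its dimmest probe set, so their class depends on the probe set. Acvr1 was middling at 8.27 ± 0.19 and Bmpr1b dim at 5.61 ± 0.31 (SD, n = 3).

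Among the TGF-beta genes, Tgfb2, which acts in cushion formation, was bright with 9.10, 8.94 and 9.28. Tgfb1, of endocardium, was middling at 6.83 and Tgfb3 dim at 5.57. Of the receptors, Tgfbr1 and Tgfbr3 were bright at 9.10 and 9.31, and Tgfbr2 was middling at 7.29 ± 0.087 (SD, n = 3). Inhbb and Lefty2, an activin subunit and a Nodal antagonist, were the dimmest of these ligands at 4.74 and 4.56. Acvrl1, a BMP9 receptor of endothelium, was the dimmest of these receptors at 5.49.

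FGF ligands had the lowest median percentile of the 4 ligand lists, 30.7, with 13 of 14 genes dim. The exception, Fgf13, is an FGF homologue that stays in the cell and binds sodium channels, and it measured 9.18, 9.30 and 9.30. Fgf8 and Fgf10, signals of the pharynx and the outflow tract progenitors, measured 4.86, 4.81 and 5.20, and 5.10, 5.24 and 4.94. Fgf9 and Fgf16, of endocardium and epicardium, were at 6.0 and 5.41, Fgf1 was at 5.85, and Fgf2 and Fgf15 were the dimmest at 4.39 and 4.35. Of 5 receptors, 4 were middling, led by Fgfr2 with 7.52, 7.96 and 8.13. Fgfr1 measured 5.64, 6.77 and 6.83, low on replicate 1, Fgfrl1, which lacks a kinase, and Fgfr3 were middling at 7.37 and 6.39, and Fgfr4 was dim at 5.25.

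Of the WNT and hedgehog ligands, 5 of 15 were middling and 0 bright. Wnt2, a ligand of the inflow region, measured 8.83, 8.65 and 8.39, Wnt11 8.17, 8.26 and 8.48, and Wnt5a 8.10, 8.18 and 8.31. Wnt11 and Wnt5a act without beta-catenin in the outflow tract. Wnt3a, Wnt1, Wnt8a and Wnt5b were dim at 5.55, 4.38, 4.26 and 4.22. Among the receptors, Fzd2 was at 8.60 ± 0.044 and Gas1, a hedgehog coreceptor, at 8.77 ± 0.054 (SD, n = 3), and 15 of 20 were middling. Ihh measured 8.65, 8.53 and 8.29, and Shh and Dhh were dim at 5.15 and 5.43. The hedgehog receptors Ptch1 and Smo were middling at 8.32 and 7.78. Fzd10 was dim at 5.01. Lrp5, a WNT coreceptor, measured 4.13, 4.39 and 5.64, and Lrp6, its relative, was middling at 7.61.

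For Notch, the ligand Jag1 ranked highest with 8.73, 8.78 and 8.67, Dll4, of endocardium, measured 6.61, 7.35 and 7.06, and Dll1 and Jag2 were close to the lower class limit at 6.19 and 6.16. Notch1 measured 8.19, 8.38 and 8.52 and Notch2 was at 7.37. Neuregulin signalling from endocardium to myocardium builds trabeculae, and its genes were not bright. Nrg1 was dim with 5.40, 5.43 and 5.15, Nrg2 middling at 6.58 ± 0.22 and Hbegf, another ErbB ligand, middling at 7.51 ± 0.091 (SD, n = 3). Erbb2 was middling with 7.41, 7.38 and 7.59, and Erbb4 was the dimmest receptor of all with 4.29, 4.39 and 4.41 (percentile 8.55), within the range of the reference genes. Nrg1 and Erbb4 each have 1 usable probe set. Thrb, a thyroid hormone receptor, was also among the dimmest receptors, at 4.70.

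Among the endothelial signals, Vegfa, Vegfb and Vegfc were middling, at 7.48, 8.08 and 7.22. Kdr, the main VEGF receptor, measured 8.72, 8.72 and 8.99, and Nrp1, a coreceptor for VEGF and semaphorins, was bright with 9.88, 10.01 and 9.76. The receptors Flt1, Flt4 and Tie1 were middling like the VEGF ligands, at 6.96, 6.37 and 7.41. Angpt1, which myocardium sends to endocardium, was bright with 9.54, 9.34 and 9.35, its receptor Tek was just below the bright class at 8.96 ± 0.065, and Angpt2 was dim at 5.61 ± 0.25 (SD, n = 3). Ramp2, the partner of the adrenomedullin receptor Calcrl, was bright at 9.29 and Calcrl middling at 8.34.

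The brightest ligand was Igf2, an imprinted growth factor of the embryo, with 12.44, 12.56 and 12.58 (percentile 99.8). Its clearance receptor Igf2r measured 11.88, 11.78 and 11.83 (percentile 99.4), and Igf1r, which signals, measured 9.0, 9.34 and 9.38. Igf1 was middling at 7.91 ± 0.21 (SD, n = 3), and Ins2 was dim at 4.90. For the natriuretic peptides, Nppa, of atria and trabeculae, measured 11.90, 11.93 and 12.01, and Nppb measured 10.21, 10.43 and 10.45, both bright. Npr3, the clearance receptor, was middling at 8.77 ± 0.091 and Npr1, the signalling receptor, dim at 4.78 ± 0.31 (SD, n = 3). Mdk, midkine, a heparin-binding growth factor of the embryo, was bright with 11.34, 11.19 and 11.31. Cxcl1 and Il6, signals of inflammation, were the dimmest of this group at 4.68 and 4.16. In 11 of the 12 pathways drawn, at least 1 ligand and 1 receptor were in the upper 50%. The exception was FGF, whose 4 ligands drawn were dim. Of these, Fgf9 lay at the class limit (percentile 49.9), with 5.60, 6.19 and 6.21 on the 3 arrays. It was below the median over genes on replicate 1 only. By construction 50% of all genes are in the upper part of the ranking, and each pathway has several genes on each side. The count of 11 thus says little about any 1 pathway.

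Matrix genes of jelly, cushions and basement membrane were bright in 13 of 41 cases (31.7%, against 10% of all genes) and middling in 22. Fn1, fibronectin, measured 11.64, 11.65 and 11.64, Col4a1, of basement membrane, 11.19, 11.22 and 11.34, and Vcan, the versican of the cardiac jelly, 10.81, 10.85 and 10.87. Sparc, a collagen-binding matrix protein, was bright at 11.04 ± 0.22 (SD, n = 3). Hapln1, which links versican to hyaluronan, was bright at 9.87 ± 0.031, and Has2, the hyaluronan synthase needed for cardiac jelly, was middling at 8.0 ± 0.10 (SD, n = 3). Its relatives Has1 and Has3 were dim at 4.84 and 4.24. Postn, periostin of cushion mesenchyme, varied with 8.36, 7.39 and 7.75, and Eln and Fbln5, of the elastic fibres of later arteries, were dim at 5.21 and 4.77.

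Cell cycle genes were bright in 21 of 33 cases (63.6%, against 10% of all genes). Cdkn1c, the imprinted inhibitor p57, measured 12.37, 12.20 and 12.41, Pcna, the clamp of DNA polymerase, 11.85, 11.82 and 11.86, and Ccnd2, cyclin D2, 11.68, 11.68 and 11.72. Thus an inhibitor and genes of proliferation were bright together. Cdk1, Top2a and Mki67, genes of cycling cells, were bright at 11.13, 10.57 and 10.02. Ccnd3 was bright at 10.57 and Ccnd1 at 9.30. The inhibitors Cdkn1b and Cdkn1a were middling at 7.78 and 6.14, and Cdkn2b and Cdkn2a were dim at 4.75 and 4.57.

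Marker genes of other cell types ranged from bright to dim. Of 15 endocardial and endothelial surface genes, 12 were middling and 0 bright, where 10% of all genes are bright. Plvap, Cdh5 and Npr3 were at 8.83, 8.79 and 8.77, and Cldn5 and Robo4 were dim at 5.30 and 4.79. Of 15 proepicardial and mesothelial genes, 3 were bright (20%, against 10% of all genes) and 11 middling. The bright ones, Podxl, Krt8 and Krt18 at 9.96, 9.58 and 9.18, are made by many epithelia. Of the 15 genes, 10 were above the 95th percentile of the reference genes. Tbx18, Tcf21, Lrrn4, Wt1 and Upk1b were among these 10, at percentiles 85.1, 81.5, 74.5, 66.3 and 62.8 of all genes. Upk3b, Aldh1a2 and Msln were below that level, at 6.47, 6.16 and 4.57. Globin genes of primitive red cells were bright. The embryonic globins Hbb-bh1, Hba-x and Hbb-y were at 12.94 ± 0.16, 12.58 ± 0.17 and 12.50 ± 0.21 (SD, n = 3), Alas2, of haem synthesis, was middling with 8.29, 8.03 and 7.48, and Epb42 and Tspo2 were dim at 5.14 and 4.23.

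Other lists were mostly dim, where 50% of all genes are dim by construction. Of the neural genes 13 of 14 were dim, of the skeletal muscle genes 11 of 12, of the foregut, liver and yolk sac genes 15 of 16, of the myeloid genes 9 of 12 and of the neural crest genes 7 of 9. The brightest of them were Nefl at 6.53, Tnni2 at 7.69, Afp at 6.35, Csf1r at 7.64 and Ets1, which endothelium also makes, at 7.87. The dimmest were Neurog2, Myf6, Foxa2, Aif1 and Foxd3, with means between 4.05 and 4.49. Spi1 and Lyz2, of myeloid cells, were at 6.14 and 6.39, below the 95th percentile of the reference genes. For neural crest and endoderm, Sox10 measured 5.08, 5.66 and 5.47 and Alb 4.36, 4.73 and 4.91.

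A small number of genes varied widely between the replicates. A range of over 1 between the arrays was found in 2 bright genes (0.110%), 25 middling genes (0.344%) and 117 dim genes (1.29%). Prl8a2, a decidual prolactin, measured 6.06, 8.03 and 10.50 and had the widest range of the middling class. Prap1, a secreted protein of uterine epithelium, measured 4.71, 5.73 and 8.19, and Htra1, a secreted protease, 5.21, 5.90 and 7.94. The same array, replicate 3, was highest for all 3. A list of 7 measured decidual and placental genes was chosen after these values were seen. Its mean deviation from the gene means was -0.747, -0.228 and 0.975 on the 3 arrays. Prl8a2, Prap1 and Htra1 are members of this list. Its deviation thus largely restates the values that prompted it. Aoc1, a decidual amine oxidase, measured 4.40, 4.80 and 6.02, while the trophoblast genes Ascl2, Prl3c1 and Tpbpa were dim on every array, with means between 4.27 and 4.35. Whether these arrays hold decidual RNA, and how far it would bear on other values, was not tested.

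Other genes were low on replicate 3. Shox2, a homeobox factor of the sinus venosus and pacemaker, measured 7.69, 7.77 and 5.96, and Anxa13 measured 7.95, 8.24 and 5.87. In a list of 8 inflow genes, also chosen after seeing these values, the mean deviation was 0.109, 0.207 and -0.316, and in the erythroid list it was 0.016, 0.175 and -0.192. Vsnl1, of the sinus venosus, measured 7.96, 8.04 and 7.17, but Isl1 and Tbx3, members of the same list, were not low on this array. Among the 10 bright genes with the widest range, 6 were lowest, and apart, on replicate 1: Slc16a3, Selenow, Cfl1, Prrc2a, Pgrmc2 and Rad23b. Mapk11 was apart on the high side on that array, with 9.77 against 8.68 and 8.95. Psap and Smyd1 were high and Prmt1 low on replicate 3. Replicate 1 also had the lowest median over genes, 5.90 against 6.07 on each of the other arrays, and the largest share of probe sets at an intensity of 0, 2.48% against 1.90% and 1.76%.

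The remaining middling genes of wide range were Lgals2 and Cxcr6, lowest on replicate 2, Ap2a1 and Jup, lowest on replicate 1, and Rian, an imprinted noncoding RNA, highest on replicate 3 with 6.21, 6.70 and 7.58. Xist, the RNA of the inactive X chromosome, measured 8.14, 8.63 and 9.12. The Y-linked genes Eif2s3y and Kdm5d ran the other way, with 7.73, 7.32 and 6.90, and 6.50, 6.30 and 5.60. Uty, also Y-linked, measured 6.38, 6.19 and 5.43. Xist and Eif2s3y were above the 95th percentile of the reference genes on every array. What these differences add to others between the arrays was not tested. For the control transcripts with probe sets at both ends, the level at the 3′ end minus that at the 5′ end was 0.370, 0.450 and 0.295 for beta-actin, -0.129, -0.075 and -0.080 for Gapdh and 1.75, 1.60 and 1.66 for the transferrin receptor. The part of RNA quality in the differences between arrays was not tested.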

How the data were processed

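Total RNA of pooled hearts had been extracted with TRIzol, and an Ovation kit was used to amplify and label it, per the labels' protocols. The authors deposited linear intensity values, 1 per probe set and array, summarised with PLIER per the submitters' processing notes; no version, background step or scaling is stated for it in the sources used here. All values come from the 3 control arrays, and log2(value + 16) was computed with no further scaling (Python 3.11.15, pandas 2.3.3, numpy 2.4.6). Symbols came from the platform's annotation: of 45037 probe sets, 34945 had 1 symbol, 932 several and 9160 none, and 34741 matched RefSeq. A gene was read on its brightest probe set, and probe sets whose names end in _x_at or _s_at, which can bind several transcripts, were taken only for want of another; 9010 genes had more than 1.

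The 35 gene lists hold 778 genes, of which 729 were measured. Members, lists and classes were chosen with earlier results of these data known, and 2 further lists (decidual, inflow) after seeing the values. Named are the markers, the 20 brightest genes, at least the 3 brightest and 2 dimmest of each list, and the 10 bright and 10 middling genes of widest range; other members are named by role, and their choice followed their values. The ranking code was run on simulated arrays. Their true levels were the observed gene means, some of them shifted, with noise of the same SD for every gene. That run checks the code and does not bear on the classes of the measured genes. Alternatives were other offsets, scalings, probe set rules, class limits, a filter on low values and leaving out each array.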

Additional observations from a re-analysis of the deposited data

How the results depend on the processing

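Counts of bright sarcomere and metabolic genes kept within 1.5 times their values, 33 and 80, under every alternative run. Moving the limit of the bright class to the top 5% gave 12 bright transcription factors, 4 ligands, 2 receptors and 0 reference genes. A limit of the top 20% gave 36 transcription factors, 18 ligands and 25 receptors. Ranking only genes with an intensity of at least 16 on all 3 arrays gave 4 ligands, 2 receptors and 0 reference genes. With the dimmest probe set of each gene there were 5 bright receptors and 0 bright reference genes, and with the mean of all probe sets 0 bright reference genes. Leaving out each array in turn gave 33 to 33 sarcomere genes, 17 to 20 transcription factors, 80 to 80 metabolic genes, 7 to 7 ligands, 8 to 8 receptors and 1 to 1 reference gene. No paired analysis was possible because only the control arrays were used and no groups were compared.

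The class of single genes moved with the probe set, the filter on low values and the class limits. Of 729 list genes, 242 (33.2%) changed class with the dimmest probe set, 25 of them between bright and dim. Of the 25, genes named above were Acadl, Atp2a2, Bmpr1a, Bmpr2, Ccnd3, Cox8a, Etfdh, Lor, Mycn, Pdk1, Sdha, Slc16a1, Smyd1, Top2a, Vcan and Ybx1. Each of these was bright on the chosen probe set and dim in that setting. With the mean of probe sets 118 (16.2%) changed class. With the brightest probe set of any suffix 28 changed, 3 of them, Acta2, Atp5c1 and Uqcrq, from dim to bright. Of the 566 list genes that passed the filter on low values, 133 (23.5%) changed class. The limits of the top 5% and top 20% changed 48 and 89 of 729. Offsets, scalings and leaving out an array, 7 settings, left 704 of 729 in their class. Which probe set reads a gene best was not tested.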

Other observations

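Among the 182 genes in the top 1% of the ranking, 71 with an ordinary gene name were neither in the gene lists nor of the kinds counted above. They are named here after their values were seen. Several are imprinted genes of embryonic growth: Mest at 12.63 ± 0.046, Grb10, an adaptor that restrains insulin and IGF receptors, at 12.03 ± 0.077 and Peg3 at 11.44 ± 0.17 (SD, n = 3). The list genes Igf2, Igf2r and Cdkn1c, also imprinted, were in the same range. Tagln, a calponin-related protein best known from smooth muscle, measured 11.60, 11.60 and 11.65. Csrp2, a LIM protein of smooth muscle, was at 11.63 ± 0.090 and Crip2 at 11.82 ± 0.073 (SD, n = 3).

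Others serve energy storage and exchange, such as Gyg, the glycogenin that primes glycogen, at 12.01, and the mitochondrial carriers and pores Slc25a3 and Vdac2 at 12.37 and 11.89. A further group handles RNA and chromatin in growing cells: Npm1, Ncl, Hnrnpa2b1, Hnrnpc, Hmgn1 and Hmga2, the last a chromatin protein largely limited to embryos, lay between 11.37 and 12.36. Hnrnpu measured 11.32, 11.47 and 11.96 and Ywhae 11.80, 12.34 and 12.29, with ranges of 0.634 and 0.542 beside a median range of 0.148 over the bright class. Hnrnpu was highest on replicate 3, and Ywhae was lowest on replicate 1.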
